A study of Homo sapiens with 18 samples.

Results

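ALR/Alpha is the repeat-annotation name of alpha satellite, the tandem DNA repeat that fills human centromeres and spills into the flanking pericentromeric bands. Alpha satellite is the DNA on which the centromeric histone CENP-A and the kinetochore assemble, and it is built from short units repeated head to tail, many of them grouped into higher-order arrays. It is transcribed at a low level in dividing cells, and its RNA is often measured in studies of pericentromeric chromatin. The members were all copies whose repeat name was exactly ALR/Alpha, 944 of 2472685 annotated repeat copies over both count tables (904 of 2404193 in the 5-FU table and 746 of 1996647 in the Nutlin table, with 706 in both). The repeat was chosen by its measured level after Nutlin, the log2 fold change of its summed count against DMSO, so the Nutlin values below are a description, and a count past the threshold in that comparison is printed beside its background with nothing read from it.

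The cells were IMR90, a widely used fibroblast line from human lung, here with wild-type genotype. Cells received Nutlin, which blocks the MDM2 protein from binding p53, at 5 µM for 6 h, or 5-fluorouracil (5-FU), an antimetabolite that disturbs RNA and DNA synthesis, at 375 µM for 6, 12 or 24 h. Each drug and time had its own group given the same volume of DMSO, the solvent, and untreated cells had only fresh medium 12 h before extraction. Each of the 9 groups had 2 samples, and nothing in the labels says that they were separate cultures, so p-values measure only the spread between these samples, which may be technical. The files list repeats and no genes, so the labelled cell type could not be checked against its markers.

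Totals per library ran from 2412334 to 6290320 counts with 5-FU and its controls and from 9109885 to 11880265 in the Nutlin table, where a single copy of 7SL RNA held most counts. Alpha satellite took between 0.0243% and 0.0509% of the 5-FU table's counts and between 0.00822% and 0.0188% of the Nutlin table's. Levels are therefore given as CPM (counts divided by the scaled library size, times 1000000) within a table and are not compared between tables. The untreated columns of the Nutlin table hold identical values and were counted as 1 sample. The DMSO libraries of 12 h were the smallest in the 5-FU table (2412334 and 2540089 counts), so the chromosome 19 sum and each alpha satellite copy called at 12 h are also given against the DMSO libraries of 6 h and 24 h. Positions are on hg19, the build in the submitters' processing notes. Neither genome sequence nor gene annotation on hg19 was used, and copies are therefore given by position alone, without sequence or gene context.

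Alpha satellite counts fell on very few of the listed copies. Each chromosome has a stretch of at least 2.5 Mb with no listed repeat, so RNA from alpha satellite inside it has no copy of its own here. Of the 904 copies in the 5-FU table, 184 had any count and 17 had a count in each of the 14 libraries. In the Nutlin table the numbers were 83 of 746 copies, and 18 in all 5 libraries. The most counted copy of the 5-FU table, chr19:28212954-28218421 (5468 bases), held 17.0% of the 23097 alpha satellite counts, the 5 most counted copies held 55.8% and the top 10 held 80.9%. In the Nutlin table the most counted copy was its neighbour, chr19:28218701-28221894 (3194 bases), with 22.6% of the 6575 counts.  Across copies with a count, which are not independent replicates, Spearman's rho between length and total was 0.173 (184 copies) in the 5-FU table and 0.0836 (83 copies) in the Nutlin table.

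Listed copies of chromosomes 9, 19 and 2 held most of the counts. They held 37.4%, 32.3% and 19.2% of the alpha satellite counts in the 5-FU table, and 22.01%, 55.5% and 14.8% in the Nutlin table. Chromosome 9 did so with 22 of the 904 listed copies and chromosome 2 with 15. Chromosomes 7 and 11 have the most listed copies (119 and 122) and held 0.766% and 0.299% of the counts. Per listed base, chromosome 2 had 50.8 counts per kb over the 14 libraries, chromosome 9 had 33.8 and chromosome 19 had 14.3, against 0.178 on chromosome 7 and 0.0697 on chromosome 11. Reads that match several alpha satellite copies equally well may have been split or given to 1 copy by the authors' counting, which is not described in the sources used here. The copy a count is assigned to is therefore uncertain wherever near-identical copies exist.

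Distance was measured to the edge of the centromere gap, the stretch of at least 2.5 Mb without any listed repeat that has the most alpha satellite within 1 Mb on each chromosome. Chromosomes 9 and 13 have none within 1 Mb, and there the first such stretch was taken, which on chromosome 9 is 18.2 Mb long. Where the centromere lies within a stretch is not given. The distance to the centromere itself can thus be longer, by up to 18.2 Mb on chromosome 9, and the classes depend on this definition. The 698 copies within 1 Mb of the gap held 61.5% of the counts in the 5-FU table, at 2.76 counts per kb. The 147 copies between 1 and 5 Mb held 37.6%, at 7.93 counts per kb, and the 59 copies beyond 5 Mb held 0.840%, at 1.25 counts per kb. The density did not fall steadily with distance. Copies within 0.1 Mb had 3.22 counts per kb, those between 0.1 and 0.5 Mb 2.82, those between 0.5 and 1 Mb 0.384, and those between 2 and 5 Mb 11.2. Leaving out the most counted copy lowered the value between 0.1 and 0.5 Mb to 1.37 and touched no other interval. By counts the class between 1 and 5 Mb is nearly all chromosome 9 (8642 of 8696), though by copies chromosome 9 is 22 of the 147. All listed copies of chromosome 9 fall in this class, so distance and chromosome cannot be told apart there, and most of the counts lie on its long arm. In the Nutlin table the shares were 77.4%, 22.1% and 0.487% for the same 3 classes.

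**Figure D1:**
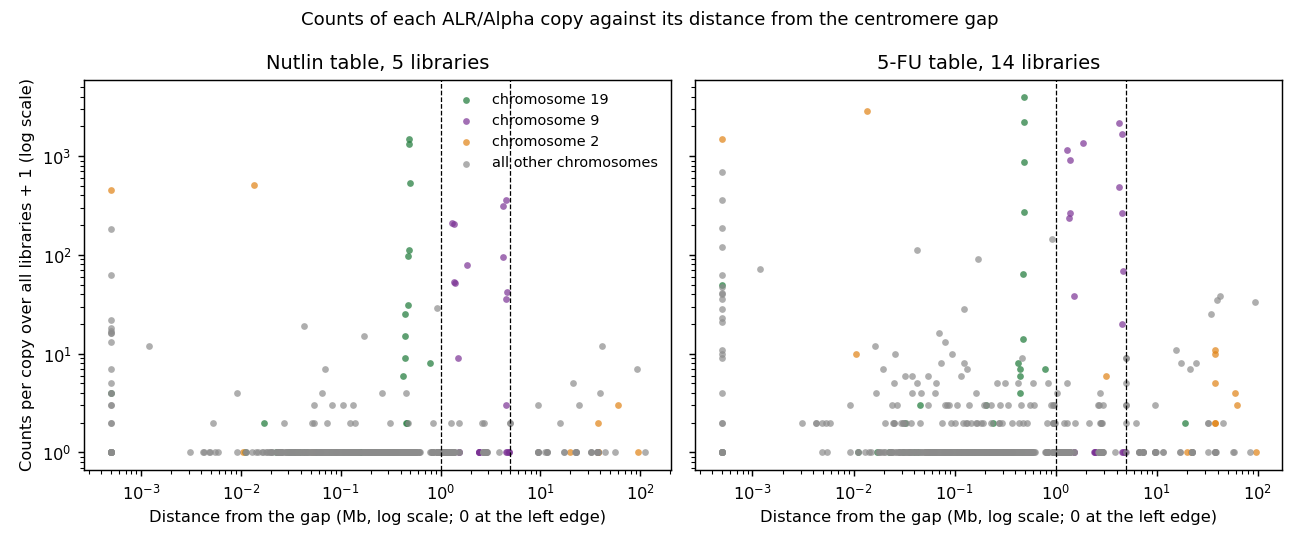
Counts of each alpha satellite copy, summed over the libraries of a table (with 1 added, log scale), against the distance of the copy from the centromere gap in Mb (log scale). Each point is 1 copy, dashed lines mark 1 and 5 Mb, and the high points are a handful of copies of chromosomes 2, 19 and 9, with most copies lying at or near 0 counts.

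After 6 h of Nutlin the summed alpha satellite level was higher than with DMSO in both samples. It stood at 93.1 and 82.9 CPM in the DMSO samples, 98.2 CPM in the untreated sample, and 214 and 183 CPM in the Nutlin samples. The groups did not overlap. Nothing is read from that, since this comparison chose the repeat and the share of all names that separate is not given. The log2 fold change was 1.18 ± 0.097 (SE from edgeR's quasi-likelihood fit, n = 2 against 2). It was 1.07 without the most counted copy of that table and 0.73 without the 4 most counted copies of 19q, an alternative chosen after seeing the data. In this comparison 12.8% of the 1058 tested repeat names passed the threshold of an adjusted p under 0.05 in either direction (9.64% higher and 3.12% lower), and 11 had a larger log2 fold change than ALR/Alpha.

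**Figure D2:**
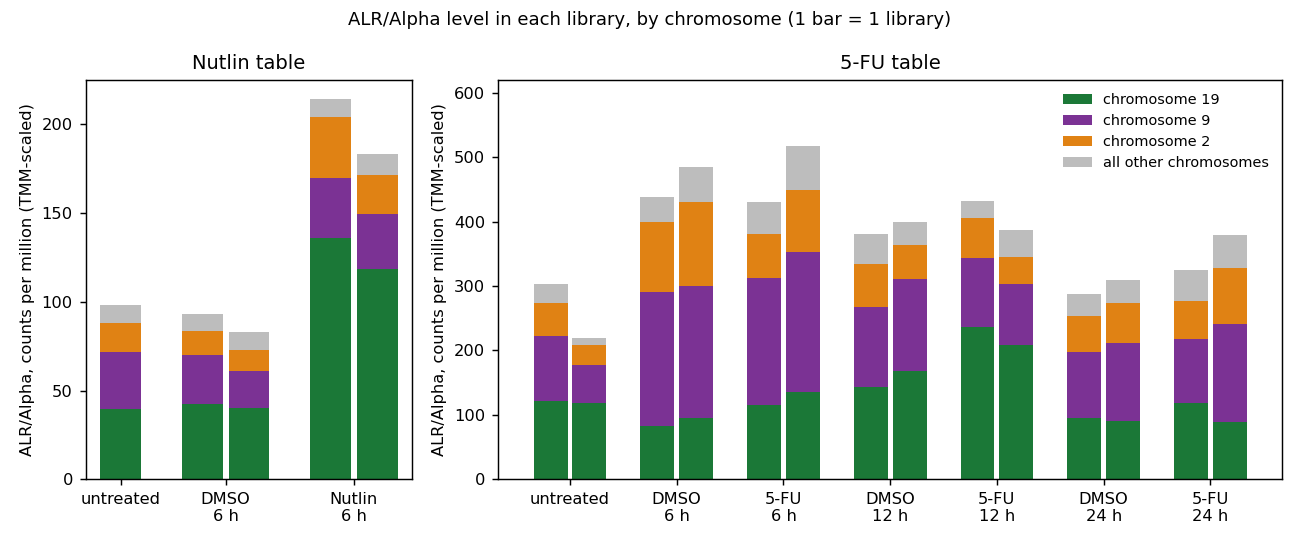
Alpha satellite level in each library, in CPM after TMM scaling, with 1 bar per library stacked by chromosome. Left, the Nutlin table, where both Nutlin bars (214 and 183 CPM) stand above the DMSO bars (93.1 and 82.9 CPM), mostly through chromosome 19; right, the 5-FU table, where 5-FU and DMSO bars of a time point reach similar heights.

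The higher level after Nutlin was unevenly spread over the genome. Chromosome 19 went from 42.4 and 40.1 CPM with DMSO to 136 and 119 CPM with Nutlin, and supplied 77.6% of the whole gain of 110.8 CPM. Its log2 fold change was 1.63 ± 0.11. Chromosome 2 stood at 13.5 and 12.3 CPM with DMSO and at 34.1 and 21.8 CPM with Nutlin, 13.6% of the gain, and chromosome 9 supplied 7.61%, with a log2 fold change of 0.43 ± 0.14. Chromosome 19 thus made up 45.6% and 48.4% of alpha satellite counts in the DMSO samples and 63.4% and 64.8% in the Nutlin samples. By distance, copies within 1 Mb of the gap had a log2 fold change of 1.39 ± 0.10 and those between 1 and 5 Mb one of 0.43 ± 0.14. Copies beyond 5 Mb had 7 and 4 counts with DMSO and 3 and 8 with Nutlin, too few to pass the filter.

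Most of the chromosome 19 signal lies in 4 adjacent copies of the long arm, about 0.481 Mb from the gap, which are called A to D in the order of their positions. Copy A is chr19:28212101-28212940, copy B is the 5468-base copy named above, copy C is its 3194-base neighbour, and copy D is chr19:28221931-28224185. These 4 are the 19q copies within 1 Mb of the gap with 100 counts or more. They held 31.6% of the 5-FU table's alpha satellite counts, 52.6% of those of the Nutlin table and 71.6% of the Nutlin gain. Copy B had 114 and 140 counts with DMSO and 522 and 354 with Nutlin, a log2 fold change of 1.75 ± 0.18. Copy C had 177 and 156 counts with DMSO and 583 and 399 with Nutlin (1.53 ± 0.17), and copy D had 78 and 52 against 206 and 141 (1.39 ± 0.22). All 4 copies had higher CPM in both Nutlin samples than in either DMSO sample. The share of all tested copies that separate in this way is not given, so nothing is read from it.

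Of the 746 copies in the Nutlin table, 23 passed the filter on low counts, and 8 of these had an adjusted p under 0.05, all higher, where 7.92% of all 34483 tested copies passed in either direction and 4.65% were higher. Since this comparison chose the repeat, nothing is read from that count. Besides A to D it held a further 19q copy upstream, chr19:28204219-28206483 (8 and 2 counts with DMSO, 43 and 38 with Nutlin), and 3 copies elsewhere. The 38048-base copy chr2:92274435-92312482, which ends 0.0137 Mb from the gap of chromosome 2, had 103 and 36 counts with DMSO and 138 and 145 with Nutlin. Copy chr9:66767879-66826625 had 32 and 13 counts with DMSO and 107 and 31 with Nutlin, and its CPM in the second Nutlin sample (3.68) barely exceeded that of the first DMSO sample (3.40). Copy chr9:42821616-42832136 had no count with DMSO and 8 and 27 with Nutlin, at least 11.5-fold higher when 3 counts over both DMSO samples are taken as the floor. The median log2 fold change was 1.02 over the 23 alpha satellite copies and 0.03 over all tested copies.

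Neighbouring repeats of other kinds were also higher around the 19q copies after Nutlin. Within 50 kb of the centre of copy B, 10 tested copies of other repeats all had a log2 fold change above 0 (range 1.16 to 2.45, median 1.50). They included the AluSc8 element that sits between copies B and C (2.06), an L1PA4 element at chr19:28186347-28192495 (2.00), the LTR22B1 element at chr19:28236732-28237198 (1.64) and the HSAT4 satellite array that follows copy D (1.17 to 2.45 over the HSAT4 copies downstream). From 50 to 100 kb away, 12 tested copies had a median of 0.61 and a range of −0.26 to 1.31. The limit of 50 kb was set after seeing the data. The interval with higher values held alpha satellite and unrelated elements alike. HSAT4 as a name is almost the same locus, since 6 of its copies here held 95.9% of its counts in the Nutlin table.

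**Figure D3:**
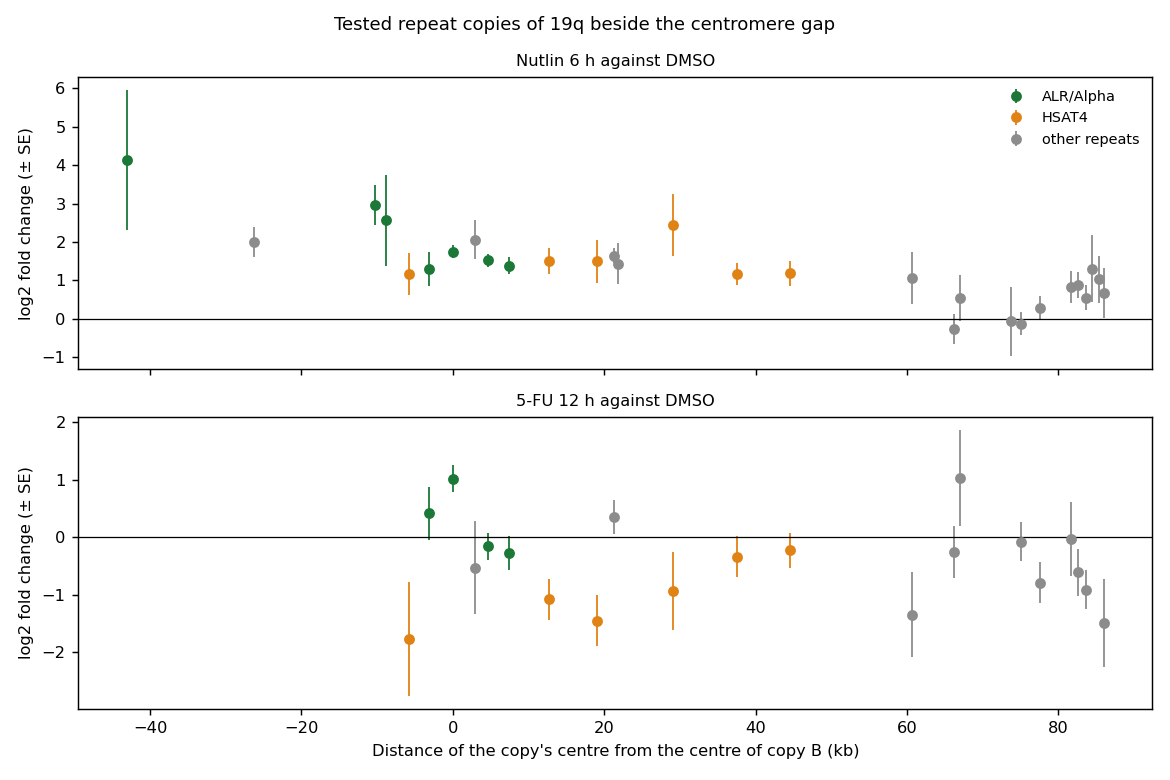
Log2 fold change (± SE) of every tested repeat copy within 100 kb of copy B on 19q, against the distance of its centre from the centre of copy B in kb, for Nutlin at 6 h (top) and 5-FU at 12 h (bottom). With Nutlin all copies within 50 kb lie above 0, alpha satellite and others alike; with 5-FU copy B stands at 1.02 while copies C and D and the HSAT4 copies lie below 0.

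With 5-FU the summed alpha satellite level was not called changed at any time. At 6 h it was 438 and 484 CPM with DMSO and 431 and 517 CPM with 5-FU, at 12 h 380.5 and 399 CPM against 431 and 387 CPM, and at 24 h 288 and 309.6 CPM against 325 and 379.6 CPM. Groups overlapped at 6 h and 12 h and did not at 24 h. How many of all names separate in this way at 24 h is not given, so nothing is read from it. The log2 fold change was 0.04 (95% interval −0.23 to 0.30, adjusted p = 0.910) at 6 h, 0.07 (−0.20 to 0.34, adjusted p = 0.726) at 12 h and 0.24 (−0.03 to 0.51, adjusted p = 0.294) at 24 h by edgeR's quasi-likelihood test. The 6 h and 12 h values change sign with the scaling, and with library size alone the 12 h sum was called lower (−0.50, adjusted p = 0.0253). Without the most counted copy the values were −0.07, −0.27 and 0.15. Of the 1074 names tested, 0%, 33.8% and 12.2% passed at 6, 12 and 24 h (at 6 h DESeq2 called 1 name higher and 1 lower). At 12 h 306 names were higher (28.5%) and 57 lower (5.31%), with a median log2 fold change of 0.17 over all names, whereas with RLE size factors 162 were higher and 232 lower, with a median of −0.11. The 24 h effect minus the 6 h effect was 0.20 ± 0.19 (adjusted p = 0.690, where 1.12% of names passed). An exact two-sided permutation test within the 3 times gave a mean log2 difference of 0.11 with p = 0.139 (216 arrangements, smallest possible p 0.00926, adjusted p = 0.174 over the 5 exact tests run).

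None of the 3 distance classes passed edgeR's test under 5-FU, beside 0%, 33.7% and 11.9% of the 1076 names and classes at 6, 12 and 24 h, and none had an unadjusted p under 0.05. DESeq2 called the class between 1 and 5 Mb lower at 12 h (−0.58, adjusted p = 0.0144) and no class at 6 h or 24 h. At 12 h the log2 fold change was 0.27 ± 0.14 within 1 Mb (adjusted p = 0.138), −0.39 ± 0.22 between 1 and 5 Mb (adjusted p = 0.193) and −1.33 ± 0.75 beyond 5 Mb (adjusted p = 0.193). The class within 1 Mb turned to −0.17 without the most counted copy and to −0.30 with library size alone, and it was called higher against the DMSO libraries of 6 h and 24 h (0.51) and with only the compared libraries in the fit (0.27). The class beyond 5 Mb rests on 7 and 14 counts with DMSO and 6 and 3 with 5-FU. The log2 ratio of near to far counts differed between 5-FU and DMSO by 0.38 on average over the 3 times (exact permutation p = 0.389, adjusted p = 0.389), and by −0.24 without the 12 h libraries. The ratio of near counts to those between 1 and 5 Mb, a test chosen after seeing the data, differed by 0.27 (exact permutation p = 0.0926, adjusted p = 0.154 over the 5 exact tests run).

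By chromosome, 12 sums were tested under 5-FU. None passed at 6 h or 24 h (background 0% and 11.8%, with 2 and 1 at an unadjusted p under 0.05, and 0 by DESeq2), and 2 passed at 12 h, where 33.5% of all 1085 features passed (28.2% higher and 5.35% lower). Chromosome 19 was higher at 12 h, with 143 and 168 CPM with DMSO against 236 and 208 CPM with 5-FU. Its log2 fold change was 0.51 ± 0.14 (adjusted p = 0.0129) and 1.29 against the DMSO libraries of 6 h and 24 h, but −0.12 without copy B and −0.05 with library size alone. The call was also lost with DESeq2 (0.32, adjusted p = 0.149), with RLE size factors (0.23), and without replicate 1 of either group (0.40 without DMSO, 0.42 without 5-FU). DESeq2 called 3 chromosome sums lower and 0 higher at 12 h. Chromosome 14 was lower, and 186 of its 210 counts come from the copy described below. Chromosome 9 went the other way from chromosome 19 without passing, at −0.41 ± 0.22 (adjusted p = 0.176).

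At the level of copies, 24 of 904 passed the filter in the 5-FU table. At 6 h 1 was called, lower (background 0.284% in either direction and 0.0211% lower). At 12 h 2 were higher and 3 lower (background 15.7%, with 11.5% higher and 4.14% lower), and at 24 h 2 were higher (6.35% in either direction, 4.01% higher), and the difference between 24 h and 6 h was called in 0 copies (0.677%, with 2 at an unadjusted p under 0.05, and 0 by DESeq2). The median log2 fold change over the 24 copies was 0.21 at 6 h, −0.10 at 12 h and 0.13 at 24 h, beside 0.16, 0.31 and 0.11 over all 52172 tested copies. At 12 h and 24 h the share of alpha satellite copies called (5 of 24 and 2 of 24) was near the background.

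Copy B, the most counted copy, lay above its DMSO samples at all 3 times. At 6 h it had 175 and 240 counts with DMSO and 309 and 378 with 5-FU, at 12 h 190 and 258 against 514 and 477, and at 24 h 195 and 203 against 287 and 334. In CPM every 5-FU sample lay above both DMSO samples of its time. How many of all tested copies separate in this way is not given, so nothing is read from it. It ranks first over all 14 libraries, but over the untreated and DMSO libraries alone it has 1628 counts and the large chromosome 2 copy has 1865. The log2 fold change was 0.85 ± 0.23 at 6 h (edgeR adjusted p = 0.138, not called), 1.02 ± 0.23 at 12 h (adjusted p = 0.00183) and 0.79 ± 0.23 at 24 h (adjusted p = 0.0310). Against the DMSO libraries of 6 h and 24 h the 12 h value was 1.90. The 12 h call was lost with library size alone (0.46, adjusted p = 0.113) and without DMSO 12 h replicate 1 (0.81, adjusted p = 0.120), and the 24 h call was lost under 7 of 12 alternatives (0.54 to 0.98 over all 12), among them leaving out 5-FU 24 h replicate 1 or either DMSO 24 h sample. Over the 3 times together the mean log2 difference in CPM was 0.89, in a test chosen after seeing the data (exact two-sided permutation p = 0.00926, the smallest that 216 arrangements can give, and 0.02315 adjusted over the 5 exact tests run). That adjustment does not cover the choice of copy B by its counts over all libraries, the 5-FU ones included. Nothing is therefore read from this p-value.

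Copy C, which begins 279 bases downstream of copy B with only the AluSc8 element between them, did not follow it. It had 140 and 139 counts with DMSO and 129 and 171 with 5-FU at 6 h, 189 and 178 against 184 and 174 at 12 h, and 193 and 195 against 116 and 114 at 24 h. None of these differences passed the test (log2 fold changes 0.22 ± 0.24, −0.16 ± 0.24 and −0.59 ± 0.24, with adjusted p = 0.828, 0.697 and 0.157). The ratio of copy B to copy C, which does not depend on how libraries are scaled, ran from 1.005 to 1.73 in the 6 DMSO samples and from 2.21 to 2.93 in the 6 5-FU samples, so the ranges did not overlap. The untreated samples stood at 1.19 and 1.13. The mean log2 difference of the ratio was 1.08, a 2.11-fold shift (exact two-sided permutation p = 0.00926, the smallest possible, adjusted p = 0.02315), in a test chosen after seeing the data. The adjustment does not cover the choice of this pair of copies, and the share of other pairs whose ranges separate is not given. Nothing is therefore read from this p-value or from the separation. With Nutlin the same ratio was 0.895 and 0.887, against 0.644 and 0.897 with its DMSO, so that both copies were higher there by a similar factor.

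**Figure D4:**
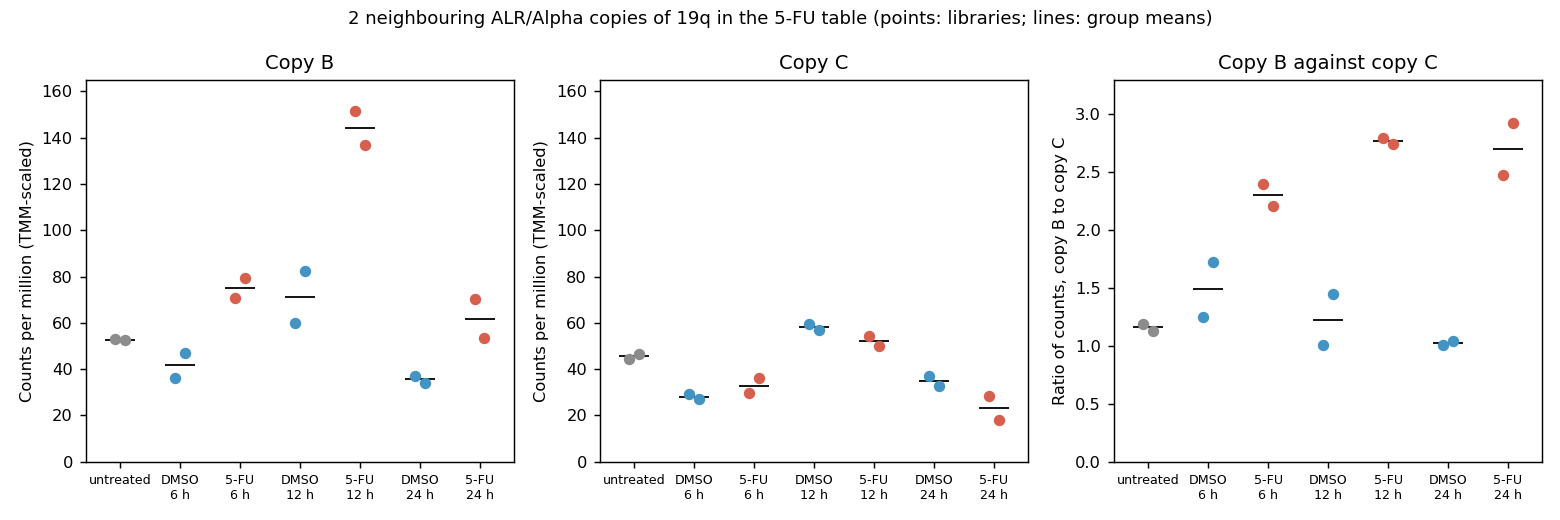
CPM of copy B and copy C, and the ratio of their counts, in each library of the 5-FU table (points, with lines at the group means; grey untreated, blue DMSO, red 5-FU). Every 5-FU sample has a ratio of 2.21 or more and every DMSO sample one of 1.73 or less, while copy C itself was not called at any time. The pair was chosen after seeing the data, and the share of other pairs that separate is not given.

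Of 8 tested copies of other repeats within 50 kb at 12 h, 2 passed edgeR's test, beside 15.7% of all copies (4.14% lower). Both were lower HSAT4 copies, at −1.08 (chr19:28224183-28232719, adjusted p = 0.0306) and −1.45 (chr19:28232790-28236728, adjusted p = 0.0216), and the median over the 8 was −0.73. These values are against the DMSO libraries of 12 h alone, and other controls are not given for them. None of the 8 passed at 6 h or 24 h, where their log2 fold changes ran from −1.02 to 0.67 and from −0.64 to 0.63, beside 0.85 and 0.79 for copy B. Further away, at 67.0 kb, an AluSc element stood at 1.12 at 6 h and 1.03 at 12 h without passing (adjusted p = 0.678 and 0.426). The LTR22B1 element, high after Nutlin, was at 0.35 (adjusted p = 0.437). Copies A and D were at 0.41 ± 0.46 and −0.27 ± 0.29. Whether the response of the 19q interval differs between Nutlin and 5-FU was not tested, since the drugs were counted in separate tables.

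Outside 19q no copy was called at more than 1 time of 5-FU. At 6 h the large chromosome 2 copy was lower with 5-FU (416 and 548 counts with DMSO, 121 and 207 with 5-FU, log2 fold change −1.44 ± 0.30, adjusted p = 0.0247). The DMSO samples of 6 h were the high ones, at 86.3 and 107 CPM, where all other libraries of the table lay between 20.8 and 54.4 CPM, and the call was lost without DMSO 6 h replicate 2 (−1.27, adjusted p = 0.167), without 5-FU 6 h replicate 1 (−1.15, adjusted p = 0.291) and with library size alone (−1.63, adjusted p = 0.0567). At 12 h copy chr9:66767879-66826625 was higher (42 and 44 counts against 137 and 111, 1.40 ± 0.39, adjusted p = 0.0192), a call that 7 of its 13 alternatives did not share. Against the DMSO libraries of 6 h and 24 h it was 1.32. Copy chr9:66839600-66853530 was lower at 12 h (54 and 65 against 23 and 36, −1.14 ± 0.34, adjusted p = 0.0173) and at −1.03 against the other DMSO times, a call lost under 4 of 13 alternatives, with adjusted p up to 0.224, 3 of which leave out 1 replicate.

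Copy chr14:19000006-19048872, which lies at the gap of chromosome 14, had 17 and 24 counts with DMSO and 0 and 2 with 5-FU at 12 h (adjusted p = 0.000225). The DMSO level was 22.4-fold that of 5-FU, with an exact 95% counting interval of 5.81 to 191 that covers counting error only, and the call held against the DMSO libraries of 6 h and 24 h (adjusted p = 0.000477). Copy chr10:42397751-42410758 had 14 and 5 counts with DMSO and none with 5-FU at 12 h (adjusted p = 0.0411), at least 6.91-fold lower against a floor of 3 counts over the group. That call held against the other DMSO times (adjusted p = 0.0449) and was lost under 4 of 12 alternatives, with adjusted p up to 0.177, among them leaving out DMSO 12 h replicate 1 or either 5-FU sample. At 24 h copy chr18:18510902-18520342 was higher (48 and 53 counts against 92 and 134, 1.28 ± 0.39, adjusted p = 0.0447), and 10 of its 12 alternatives did not call it.

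Some heavily counted copies differed widely between replicates. Copy chr2:92315720-92326171, next to the chromosome 2 gap, had 24 and 77 counts in the DMSO samples of Nutlin and 218 and 38 in the Nutlin samples, and 36 and 316 in the 5-FU samples of 24 h. Copy chr9:67315243-67320975 had 296 and 96 counts with DMSO and 289 and 126 with 5-FU at 6 h, but at 12 h 86 and 90 against 27 and 31, without passing the test (−1.72 ± 0.69, adjusted p = 0.142). Copy chr9:69948086-70000000 had 97 and 149 counts with DMSO and 39 and 15 with 5-FU at 12 h, without passing the test (−2.31 ± 0.94, adjusted p = 0.151). None of these 3 copies was called in any comparison.

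Alpha satellite was also compared between DMSO and untreated cells, which asks what the solvent and the handling that goes with it do. The sum stood at 304 and 219.8 CPM in untreated samples and between 288 and 484 CPM in the 6 DMSO samples. By time these were 438 and 484 CPM (6 h), 380.5 and 399 CPM (12 h) and 288 and 309.6 CPM (24 h). In the Nutlin table the direction was the opposite (1 untreated sample, not tested). There the untreated sample had 0.0119% of its counts in alpha satellite, and the DMSO samples 0.00962% and 0.00822%. Chromosome 9 had 379 counts untreated and 260 and 190 with DMSO, and chromosome 2 had 196, 127 and 113. In the 5-FU table the log2 fold change of the sum was 0.52 ± 0.12 (edgeR adjusted p = 0.0135, where 11.8% of names passed and 1.68% were higher), and 51 of 1074 names had a larger one. The call was lost without untreated replicate 2 (0.31, adjusted p = 0.194), and the value was 0.87 without the 4 19q copies. By chromosome 3 of 12 sums were called, all higher, beside 11.8% of all features in either direction and 1.84% higher. Chromosome 9 was at 99.6 and 58.8 CPM in untreated samples and between 103 and 208 CPM with DMSO (0.87 ± 0.19, adjusted p = 0.0127), and chromosome 2 at 51.9 and 30.3 CPM against 53.0 to 131 CPM (0.86 ± 0.24, adjusted p = 0.0322). Both calls were lost without untreated replicate 2 (0.55 and 0.54), and that of chromosome 2 also without untreated replicate 1. The call of chromosome 9 held under 16 of 17 alternatives and that of chromosome 2 under 12 of 17. Chromosome 19 was not called (−0.15 ± 0.12, adjusted p = 0.456), at 122 and 119 CPM in untreated samples and between 83.0 and 168 CPM with DMSO. Of the 24 tested copies 3 were higher with DMSO (background 4.70% in either direction and 1.00% higher), namely the large chromosome 2 copy (1.18 ± 0.27, adjusted p = 0.00940), the chromosome 14 copy (2.31 ± 0.59, adjusted p = 0.0166) and the chromosome 18 copy (1.64 ± 0.43, adjusted p = 0.0231). All 3 calls were lost without either untreated sample (adjusted p = 0.120 and 0.0941, 0.175 and 0.213, and 0.228 and 0.166, without replicate 1 and 2 in turn).

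The DMSO groups differed among themselves. Chromosome 9 alpha satellite stood at 208 and 205 CPM with DMSO at 6 h, 124 and 143 CPM at 12 h and 103 and 120.2 CPM at 24 h, and chromosome 2 at 109 and 131, 67.0 and 53.0, and 55.9 and 62.9 CPM. Chromosome 19 had its highest DMSO values at 12 h (143 and 168 CPM) and lower ones at 6 h (83.0 and 95.1 CPM) and 24 h (94.6 and 90.8 CPM). With 5-FU chromosome 19 was also highest at 12 h (236 and 208 CPM) and chromosome 9 at 6 h (196 and 216 CPM). These differences between time points were not tested.

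Alpha satellite is 1 of several satellite families, and 23 other satellite names were listed beside it, of which 17 passed the filter in each table. With Nutlin the median log2 fold change was 0.39, beside 0.07 over all names. HSAT4 stood at 1.36, most of it the 19q array above, SATR2 at 0.94 and the beta satellite BSR/Beta at −0.61. With 5-FU at 12 h 4 were higher (BSR/Beta 0.43, SST1 0.62, MSR1 0.84 and SUBTEL_sa 1.05) and 2 lower (HSAT4 −0.68 and CER −0.999), with a median of 0.03 beside 0.17. Over all names 28.5% were higher and 5.31% lower. Directions at 12 h depend on the scaling, and these satellite values are given with TMM alone. At 24 h 1 was higher (LSAU, 1.31, beside 11.0% of all names) and 0 lower, and at 6 h 0 passed, as for all 1074 names. With DMSO against untreated cells BSR/Beta was lower (−0.75, adjusted p = 0.000214, beside 10.1% of names lower).

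The repeat names whose level followed alpha satellite most closely over the 14 libraries of the 5-FU table were MER92-int (Pearson r = 0.774 on log2(CPM + 1)), Tigger14a and MER104 (both 0.764), LTR37-int (0.763) and LTR16 (0.752), which share libraries, depth and scaling with it. Under Nutlin the names nearest in log2 fold change were HERVKC4-int (1.24), MER57D (1.09), L1P3b (1.28), ERVL47-int (1.06) and MER34-int (1.06), out of 1057 others. Both lists are descriptions, with no test.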

How the data were processed

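The authors deposited 1 table of raw read counts per annotated repeat copy for the Nutlin experiment and 1 for the 5-FU experiment. Per the labels' protocols the libraries were stranded total RNA, and the submitters' processing notes name Trimmomatic 0.32, cutadapt 1.10, Bowtie2, edgeR, DESeq2 and hg19, with no roles. How reads matching several copies were counted is not given in the sources used here.

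Counts were summed by repeat name, with ALR/Alpha also split by chromosome and by distance from the centromere gap, or kept by copy. Each table was fitted as a whole, with group means and all its libraries, in edgeR 4.0.16 (TMM scaling over all copies, filterByExpr, robust quasi-likelihood test) under R 4.3.3, and p-values were adjusted over all features by the Benjamini-Hochberg method. A call is an adjusted p under 0.05. CPM are counts divided by the TMM-scaled library size. The exact permutation tests exchanged labels within each time. The scripts were tested on simulated data. Library depth limits single copies most: a count of 0 in a library allows up to 3 counts, for counting error only.

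Alternatives were RLE factors, library size alone, DESeq2 1.42.0, no low-count filter, leaving out structural RNA, only the libraries compared, each replicate left out, a replicate block, a threshold of 0.01, other 12 h controls, a 2 Mb limit and leaving out the most counted copy, plus 2 chosen after seeing the data. Named were the 10 most counted copies of each table and up to 10 other called copies per comparison; further copies and neighbours were chosen after their values were seen. The members and lists were chosen with earlier results of these data known.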

Additional observations from a re-analysis of the deposited data

Results flagged for a closer look

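Copies more than 5 Mb from the centromere gap had a mean log2 CPM difference between 5-FU and DMSO of −1.34 at 12 h and of 0.51 at 24 h, and every 5-FU sample lay on the opposite side of its DMSO samples at these times. The class rests on few counts, with 3 to 14 per library at 12 h. Copy C of 19q (chr19:28218701-28221894) had a difference of 0.22 at 6 h and of −0.16 at 12 h, again with every 5-FU sample on opposite sides. The difference between these time points was tested for neither. By edgeR's test none of these values was called (adjusted p = 0.193 at 12 h and 0.599 at 24 h for the class, 0.828 at 6 h and 0.697 at 12 h for copy C). The copy C differences were smaller than their SE of 0.24. The share of all features that separate in opposite directions at different times is not given, so nothing is read from this separation.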

How the results depend on the processing

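Under Nutlin the sum kept its direction under every alternative run, at 1.00 with library size alone, 0.73 without the 4 19q copies and 1.06 to 1.28 with 1 replicate left out. Under 5-FU the sum changed sign. At 6 h it was −0.12 with RLE factors, −0.14 with library size alone, −0.0737 without the most counted copy, −0.10 without the 4 19q copies and −0.0843 with TMM factors from the filtered copies. At 12 h it was −0.22, −0.50, −0.27, −0.32 and −0.17 in the same order, and −0.12 by DESeq2. With 1 replicate left out it ran from −0.10 to 0.16 at 6 h, −0.0117 to 0.15 at 12 h, 0.12 to 0.34 at 24 h and 0.31 to 0.78 for DMSO against untreated, and from 0.08 to 0.34 for 24 h minus 6 h. The exact test over 3 times gave −0.21 with library size alone, −0.0720 without the most counted copy and 0.0681 to 0.16 with 1 replicate left out.

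Copies within 1 Mb had values of −0.10 (6 h) and −0.0131 (12 h) with RLE factors, −0.13 and −0.30 with library size alone, −0.17 and −0.17 without the most counted copy, and −0.0643 (6 h) with TMM factors from the filtered copies. They were called higher at 12 h against the DMSO libraries of 6 h and 24 h (0.51) and with only the compared libraries in the fit (0.27). With 1 replicate left out they ran from −0.14 to 0.23, 0.20 to 0.35 and 0.26 to 0.27 at 6, 12 and 24 h and from 1.26 to 1.51 with Nutlin. Copies beyond 5 Mb were at −0.0503 at 6 h with a limit of 2 Mb, and ran from −0.15 to 0.56, −1.92 to −0.74 and 0.0955 to 1.103. The near to far ratio was −0.24 without the 12 h libraries, and 0.20 to 0.56 with 1 replicate left out. Chromosome 19 at 12 h was −0.0519 with library size alone and −0.12 without copy B.

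The number of called copies was 4 with Nutlin by DESeq2 and with only the compared libraries. At 6 h it was 0 with library size alone, 2 with no filter, 3 with only the compared libraries and 0 at 0.01, and at 12 h 2 at 0.01 and 7 against the DMSO libraries of 6 h and 24 h. At 24 h it was 0 with RLE factors, only the compared libraries or 0.01, and 1 with library size alone, no filter or TMM factors from the filtered copies. For DMSO against untreated it was 5 by DESeq2 or with only the compared libraries and 1 at 0.01. With 1 replicate left out it ran from 7 to 8 with Nutlin, 0 to 1, 1 to 4 and 0 to 2 at 6, 12 and 24 h, and 0 to 4 for DMSO against untreated. With Nutlin 102 names were higher and 33 lower with TMM, and 43 and 48 by DESeq2.

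The labels do not say that samples with the same replicate number are paired. Same-number correlations were −0.07 (Nutlin) and 0.02, 0.00 and 0.40 (5-FU at 6, 12 and 24 h). The main fit and the exact tests used no pairing, also at 24 h. With the replicate block the sum was 1.17 with Nutlin, 0.04, 0.07 and 0.24 with 5-FU at 6, 12 and 24 h, 0.20 for 24 h minus 6 h and 0.52 for DMSO against untreated, and no call of the sum changed. The causes of these changes were not tested. With 2 samples per group, small differences in thinly counted copies cannot be told from the spread at this depth.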
